A study of Mus musculus with 16 samples.

Results

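The 9 genes described here mark the medium spiny neurons of the striatum. They were taken as a named list, chosen with earlier results of these data known. They are Drd1 and Tac1 of the direct pathway, Drd2, Adora2a, Penk and Gpr6 of the indirect pathway, and Ppp1r1b, Rgs9 and Pde10a, which both pathways use. All 9 were found among the 39179 gene identifiers of the count table. RNA sequencing was available for 16 mice in 4 groups of 4, wild type (MRPS5 WT) and V338Y mutants of the mitochondrial ribosomal protein MRPS5, each at 3 and at 19 months of age. The study's methods describe the V338Y mice as homozygous for a knock-in of this substitution, all mice as female, and the tissue as cortex, whereas the sample labels name brain. One mouse gave 1 library, and no other treatment is given for any group.

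Medium spiny neurons are the inhibitory output cells of the striatum and receive dopamine from the midbrain and glutamate from the cortex. Those of the direct pathway carry the dopamine receptor encoded by Drd1, which raises cyclic AMP, and those of the indirect pathway carry the receptors encoded by Drd2, which lowers cyclic AMP, and by Adora2a, which raises it in response to adenosine. Both kinds share a set of enzymes that read and end the cyclic AMP signal, and transcripts of these genes are known to be far more abundant in striatum than in cerebral cortex.

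The promoter sequences below are shown because several genes of this list are known to respond to cyclic AMP, and because the pathway markers can be compared letter by letter. RefSeq starts on GRCm38.p6 were matched for 6 of the 9 genes, and the sequences of Drd1, Tac1, Drd2 and Gpr6 are printed 5′ to 3′ on the strand of the gene. Each window begins 250 bases before the start and ends before the first annotated exon of the gene. Capitals mark the cyclic AMP response element (CRE, TGACGTCA), its core (TGACG or CGTCA, both of which the whole element holds) and the SP1 box (GGGCGG or CCGCCC), each searched on both strands. Of 32851 RefSeq windows of the mouse, each searched over the 250 bases before the start, 1.55% held the CRE, 17.8% its core and 32.7% the SP1 box.
Drd1, chr13:54055706-54055908, minus strand: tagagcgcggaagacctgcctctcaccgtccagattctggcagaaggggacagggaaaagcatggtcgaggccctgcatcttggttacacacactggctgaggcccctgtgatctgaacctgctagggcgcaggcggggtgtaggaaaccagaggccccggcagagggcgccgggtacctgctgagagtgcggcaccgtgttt
Tac1, chr6:7554811-7554878, plus strand: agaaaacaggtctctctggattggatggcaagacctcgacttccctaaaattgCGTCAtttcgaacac
Drd2, chr9:49340153-49340402, plus strand: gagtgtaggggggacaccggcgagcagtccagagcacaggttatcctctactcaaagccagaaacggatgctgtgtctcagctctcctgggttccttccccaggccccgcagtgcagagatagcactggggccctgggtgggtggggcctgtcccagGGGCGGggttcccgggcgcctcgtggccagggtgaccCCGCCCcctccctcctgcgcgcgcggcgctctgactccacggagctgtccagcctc
Gpr6, chr10:41072291-41072540, minus strand: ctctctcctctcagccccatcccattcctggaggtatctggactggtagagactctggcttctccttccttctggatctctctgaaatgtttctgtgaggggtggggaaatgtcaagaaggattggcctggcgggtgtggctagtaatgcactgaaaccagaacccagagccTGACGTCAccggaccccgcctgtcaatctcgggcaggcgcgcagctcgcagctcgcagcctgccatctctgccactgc
The window of Gpr6 held the whole CRE 78 bases before the start. Tac1 held the core CGTCA 197 bases before the start and, in the part of its window that is not printed, the core again at 43 bases and an SP1 box at 107. Drd2 held SP1 boxes at 93 and 56 bases. The stretch printed for Drd1, which is 203 bases long and belongs to the first of its starts, held none of these letters, but the window of its second start (chr13:54054781-54055030) held an SP1 box 133 bases before that start. Rgs9 and the first window of Pde10a, which are not printed, held SP1 boxes at 91 and 146 bases. A match describes the letters of a window and is no measure of binding.

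The tissue is described as cortex or brain and not as striatum, and some library features followed the age groups. Which regions and cells gave the transcripts of the listed medium spiny neuron genes was not tested. Their levels and changes below are those of the whole sample. Total counts were between 6181448 and 19601664 per mouse. Transcripts of cortical neurons were present in every library, with 13 markers summing to between 1361 and 1707 CPM (counts relative to the TMM-scaled total of each library). The 8 cerebellum markers summed to 706 to 1241 CPM in wild type at 3 months, to 1421 CPM (median) in V338Y at 3 months and to 77.6 to 94.9 CPM in all 8 mice at 19 months. One 3-month V338Y library, mouse 14, stood apart with 102 CPM of cerebellum markers. The 4 Y-linked transcripts Ddx3y, Uty, Kdm5d and Eif2s3y were present in all 8 libraries at 3 months and had no count in the 8 at 19 months, which goes against the description of all mice as female. The 6 endothelial markers summed to 157 to 172 CPM at 3 months and to 715 to 871 CPM at 19 months. Age therefore cannot be told apart from the sex-linked and dissection differences between these libraries, and every age comparison below carries this limit. Choroid plexus markers reached 2238 CPM in V338Y at 19 months, with mice 17 and 18 highest. Mrps5 itself had 35.5 to 41.8 CPM at 3 months and 27.3 to 31.6 CPM at 19 months in both genotypes, but the substitution leaves the gene countable, so its count does not check the genotype labels.

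The 9 genes varied little between mice. The ratio of the highest to the lowest CPM over all 16 mice ran from 1.25 for Drd1 to 1.81 for Drd2. Counts were between 44 and 5125 per library, and Gpr6 and Drd2 had the fewest, 44 to 176 and 51 to 204, so that counting error alone is widest for this pair. Levels of different genes were compared as CPM per kilobase of annotated exon, averaged over 16 mice. The SD given with them covers all 4 groups and so includes the differences between ages. Penk, the precursor of the enkephalins, was highest at 80.6 ± 11.3 (SD, n = 16). Ppp1r1b, the protein phosphatase inhibitor that dopamine signalling switches on, followed at 38.0 ± 6.92, and Pde10a, a phosphodiesterase that degrades cyclic AMP and cyclic GMP, at 17.9 ± 1.73. These top 3 did not overlap with each other or with Drd1 over the 16 mice. Drd1 stood at 12.2 ± 0.733, and Tac1, the precursor of substance P, at 9.84 ± 1.13. Rgs9, which speeds the shut-off of inhibitory G proteins, stood at 8.46 ± 0.821 and Adora2a at 7.94 ± 0.813. Tac1 was above Rgs9 in 12 of 16 mice and Rgs9 above Adora2a in 12 of 16, so the order of these neighbours was not the same in every library. Gpr6, a receptor that is constitutively active towards cyclic AMP, had 4.29 ± 0.505 and Drd2 had the lowest level at 3.00 ± 0.506. Gpr6 was nevertheless above Drd2 in 16 of 16 mice. Exons used by a minority of transcripts enter these lengths, which lowers the value of a gene such as Pde10a with 14 annotated transcripts.

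The direct pathway genes are given first, as CPM in each mouse. Drd1 (chromosome 13: 54051183-54055705, minus strand, GRCm38) had 46.2, 43.8, 41.4 and 48.6 in wild type at 3 months and 41.0, 45.4, 44.1 and 41.8 in V338Y at 3 months. At 19 months it had 45.5, 45.3, 40.3 and 50.2 in wild type and 43.6, 43.4, 45.4 and 43.1 in V338Y. All 4 groups of Drd1 overlapped, and no mouse was far from the rest. Tac1 (chromosome 6: 7554879-7565834, plus strand) had 39.6, 38.0, 33.3 and 34.3 in wild type at 3 months and 36.1, 39.1, 33.1 and 34.5 in V338Y at 3 months. At 19 months it had 33.4, 28.1, 28.0 and 35.7 in wild type and 29.6, 27.3, 33.8 and 31.2 in V338Y. The 5 lowest Tac1 values were all in mice of 19 months, but the ages overlapped in both genotypes.

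Among the indirect pathway genes, Drd2 (chromosome 9: 49340627-49408177, plus strand) had 8.60, 8.12, 5.91 and 7.77 CPM in wild type at 3 months and 9.46, 10.3, 7.47 and 5.72 in V338Y at 3 months. It had 6.42, 7.28, 8.62 and 8.40 in wild type at 19 months and 7.36, 6.80, 7.94 and 6.09 in V338Y at 19 months. The 3-month V338Y group was the most spread for Drd2 and held both its highest and its lowest mouse. Adora2a (chromosome 10: 75316877-75334784, plus strand) had 25.2, 22.9, 20.1 and 24.0 in wild type and 28.1, 28.9, 28.2 and 24.3 in V338Y at 3 months. At 19 months Adora2a had 23.2, 22.2, 24.5 and 23.9 in wild type and 21.8, 21.8, 26 and 24.0 in V338Y. The 3 highest values of Adora2a were V338Y mice of 3 months. Penk (chromosome 4: 4133531-4138819, minus strand) had 170, 144, 143 and 135 in wild type and 166, 134, 147 and 134 in V338Y at 3 months. It had 114, 119, 116 and 125 in wild type and 114, 110, 118 and 116 in V338Y at 19 months. Every 3-month mouse lay above every 19-month mouse for Penk. Gpr6 (chromosome 10: 41069977-41072285, minus strand) had 8.97, 6.92, 6.80 and 6.30 in wild type and 8.44, 8.92, 7.32 and 7.33 in V338Y at 3 months. It had 7.78, 8.83, 7.87 and 7.24 in wild type and 7.07, 6.74, 8.95 and 6.96 in V338Y at 19 months. The groups of Gpr6 overlapped throughout.

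Among the genes of both pathways, Ppp1r1b (chromosome 11: 98348404-98357796, plus strand) had 130, 136, 115 and 115 CPM in wild type and 139, 141, 136 and 125 in V338Y at 3 months. It had 90.5, 84.8, 95 and 89.4 in wild type and 99.7, 97.2, 99.7 and 90.8 in V338Y at 19 months. No 19-month mouse reached the lowest 3-month mouse for Ppp1r1b. Rgs9 (chromosome 11: 109225355-109298129, minus strand) had 51.2, 51.8, 47.7 and 43.8 in wild type and 49.7, 56.7, 60.6 and 50.8 in V338Y at 3 months. It had 52.6, 58.5, 56.7 and 64.0 in wild type and 57.3, 51.5, 59.2 and 53.3 in V338Y at 19 months. Every young wild-type mouse lay below every old wild-type mouse for Rgs9, whereas the V338Y ages overlapped. Pde10a (chromosome 17: 8525372-8986648, plus strand) had 219, 211, 206 and 217 in wild type and 218, 260, 291 and 238 in V338Y at 3 months. It had 221, 218, 230 and 254 in wild type and 224, 209, 232 and 229 in V338Y at 19 months. The 3-month V338Y group held the 2 highest Pde10a values and spread the most.

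**Figure D1:**
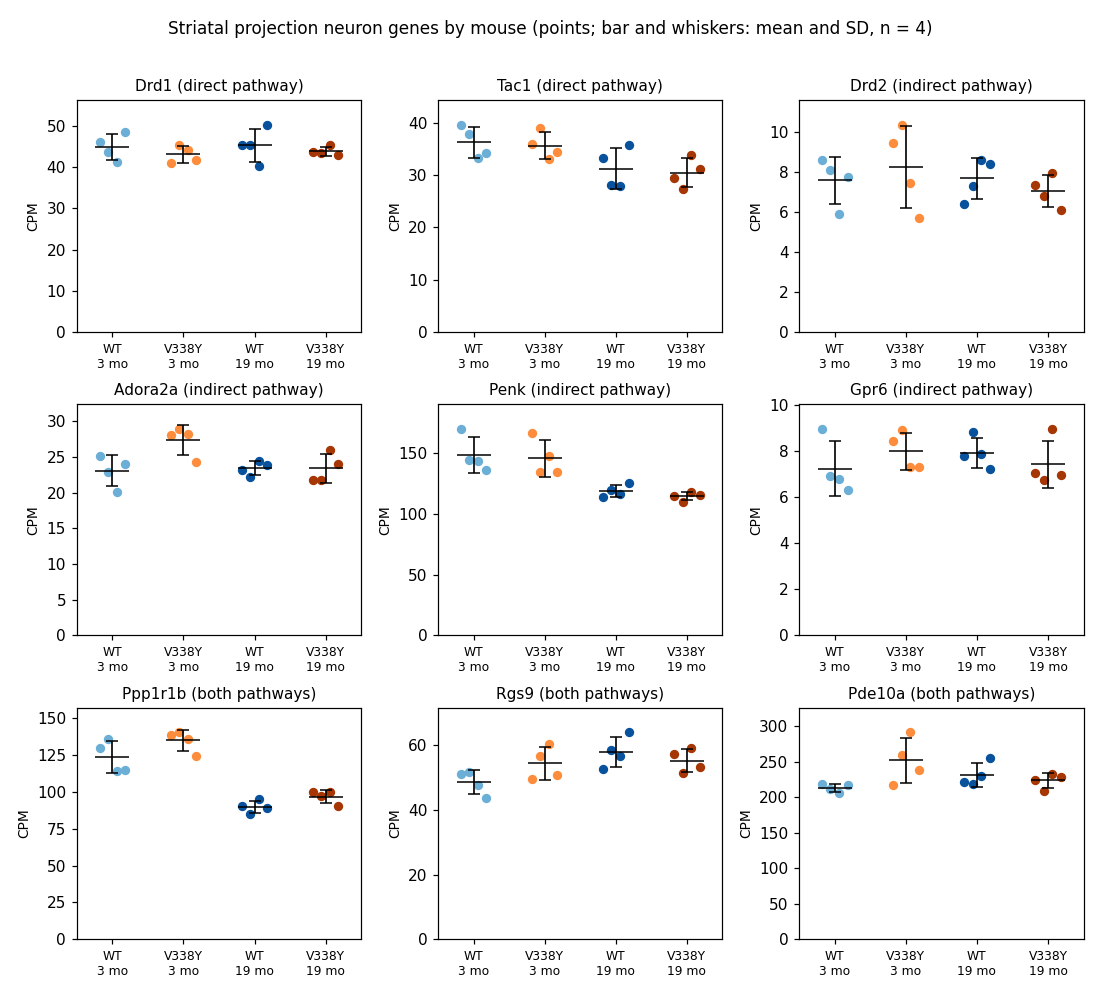
CPM of the 9 genes (vertical axis, from 0) in each of the 16 mice by group (horizontal axis), with points for mice and bars and whiskers for the mean and SD of 4 mice. Penk and Ppp1r1b are lower in every 19-month mouse than in every 3-month mouse, while Drd1 stays between 40.3 and 50.2 CPM in all groups.

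Whether the mutation changed these genes in young mice was asked by comparing V338Y with wild type at 3 months. None of the 9 genes passed the test (edgeR quasi-likelihood test, Benjamini-Hochberg adjusted p under 0.05), against 0.0616% of the 16241 genes tested. By CPM, no member separated the groups, against 3.4% of all genes. Their log2 fold changes ran from -0.06 for Drd1 to 0.25 for Adora2a with a median of 0.12, beside a median of 0.00 over all genes. At an unadjusted p under 0.05 there were 2, beside 815 of the 16241 genes tested. These 2 were Adora2a (log2 fold change 0.25 ± 0.0881, SE) and Pde10a (0.24 ± 0.0785), both with an edgeR adjusted p of 0.926. The genotypes overlapped in both genes. DESeq2 also called 0 of the 9. Of 7 thalamus markers, 3 separated the genotypes at this age and 5 had an unadjusted p under 0.05 (median log2 fold change 0.52). None of the 7 passed the edgeR test, and the part of the dissection in this comparison was not tested.

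The same question was asked of old mice by comparing V338Y with wild type at 19 months. None of the 9 passed the edgeR test or separated the groups, against 3.12% of 16420 genes called and 8.92% with groups that did not overlap. The log2 fold changes were between -0.12 for Drd2 and 0.09 for Ppp1r1b, with a median of -0.06 against 0.00 over all genes. No member had an unadjusted p under 0.05, against 2660 of the 16420 genes, and DESeq2 called 0 of the members. The 95% interval of the fold change reached from -0.15 to 0.01 on the log2 scale for Penk, from -0.01 to 0.18 for Ppp1r1b and from -0.18 to 0.06 for Drd1, while for Drd2 it reached from -0.37 to 0.13. Choroid plexus transcripts were higher in part of the V338Y group, and without mice 17 and 18 the count of members called was again 0. Of 7 hypothalamus and pituitary markers tested, 2 passed as lower in V338Y, Prl and Gh. Prl had 55.1 to 92.8 CPM in wild type and 13.7 to 17.5 CPM in V338Y. The other 5 had positive fold changes and did not pass. The part of the dissection in this comparison was not tested either.

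With age in wild-type mice, 5 of the 9 genes passed the edgeR test, 3 lower and 2 higher at 19 months. Of 16101 genes, 62.8% were called, 31.5% lower and 31.4% higher, so this count is no more than the background of the comparison. DESeq2 called 4, all but Tac1. Ppp1r1b fell by 0.42 on the log2 scale (SE 0.0572, edgeR adjusted p = 2.7e-07), to 0.745 of its level at 3 months. Penk fell by 0.28 (SE 0.0594, edgeR adjusted p = 0.000279) and Tac1 fell by 0.19 (SE 0.0803, edgeR adjusted p = 0.0444). Rgs9 rose by 0.28 (SE 0.0667, edgeR adjusted p = 0.000579), 1.21-fold, and Pde10a rose by 0.15 (SE 0.0480, edgeR adjusted p = 0.00712). Drd1 (0.04 ± 0.0682, SE), Drd2 (0.03 ± 0.139), Adora2a (0.06 ± 0.0812) and Gpr6 (0.20 ± 0.132) did not pass. Ppp1r1b, Penk and Rgs9 separated the ages without overlap, 3 of 9 against 56% of all genes. The median change of the 9 genes was 0.04, and the median over all genes was 0.00.

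The calls of Ppp1r1b, Penk and Rgs9 in wild type held in all 8 fits that left out 1 mouse. Tac1 lost its call without wild-type mouse 9 or 10 of 3 months or mouse 13 or 14 of 19 months (edgeR adjusted p between 0.113 and 0.206), and Pde10a lost it without mouse 15 of 19 months (log2 fold change 0.10, edgeR adjusted p = 0.0620). Gpr6 passed only without mouse 9 of 3 months (0.30, edgeR adjusted p = 0.0499). Scaling by library size alone gave Pde10a 0.06 (edgeR adjusted p = 0.281). With the cerebellum marker level as a covariate, chosen after seeing the data, Penk alone passed, but this level separates the ages in wild type without overlap and the fold changes are then poorly set (Penk -2.05).

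With age in V338Y mice, 4 of the 9 genes passed the edgeR test, all of them lower at 19 months. DESeq2 called 2, Ppp1r1b and Penk, and the same 2 were called by edgeR without mice 17 and 18, which had the highest choroid plexus markers. Of 16770 genes, 48.8% were called, 25.7% lower and 23.1% higher. Ppp1r1b fell by 0.47 (SE 0.0587, edgeR adjusted p = 3.52e-05), to 0.721 of its level at 3 months, and Penk fell by 0.34 (SE 0.0700, edgeR adjusted p = 0.00164). Tac1 fell by 0.22 (SE 0.0756, edgeR adjusted p = 0.0293) and Adora2a fell by 0.22 (SE 0.0796, edgeR adjusted p = 0.0396). Pde10a (-0.16 ± 0.0804, SE), Rgs9 (0.03 ± 0.0747), Drd1 (0.03 ± 0.0571), Drd2 (-0.22 ± 0.171) and Gpr6 (-0.10 ± 0.122) did not pass. Ppp1r1b and Penk separated the ages without overlap, 2 of 9 against 44.7% of all genes. The 9 genes had a median change of -0.22 beside -0.03 over all genes.

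The calls of Ppp1r1b and Penk in V338Y also held in all 8 fits that left out 1 mouse. Those of Tac1 and Adora2a each held in 2 of the 8. Tac1 lost its call without mouse 13, 14 or 16 of 3 months or mouse 17, 18 or 20 of 19 months, with the edgeR adjusted p up to 0.102, and Adora2a without mouse 13, 14 or 15 of 3 months or 17, 18 or 20 of 19 months, up to 0.117. Pde10a passed as lower without mouse 13 (-0.21, edgeR adjusted p = 0.0235) and with scaling by library size alone (-0.22, edgeR adjusted p = 0.0239). Mouse 14, the young V338Y library with few cerebellum transcripts, had 141 CPM of Ppp1r1b, 134 CPM of Penk and 39.1 CPM of Tac1, above the 4 old V338Y mice in each gene. This mouse was also the highest of its group over the 9 genes, with 8 of them above the group mean and a mean deviation of 0.10 on the log2 scale, and 1 library carries no replicate check. With the cerebellum marker level as a covariate, Ppp1r1b (-0.53) and Tac1 (-0.38) passed and Penk (-0.17, edgeR adjusted p = 0.276) did not.

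**Figure D2:**
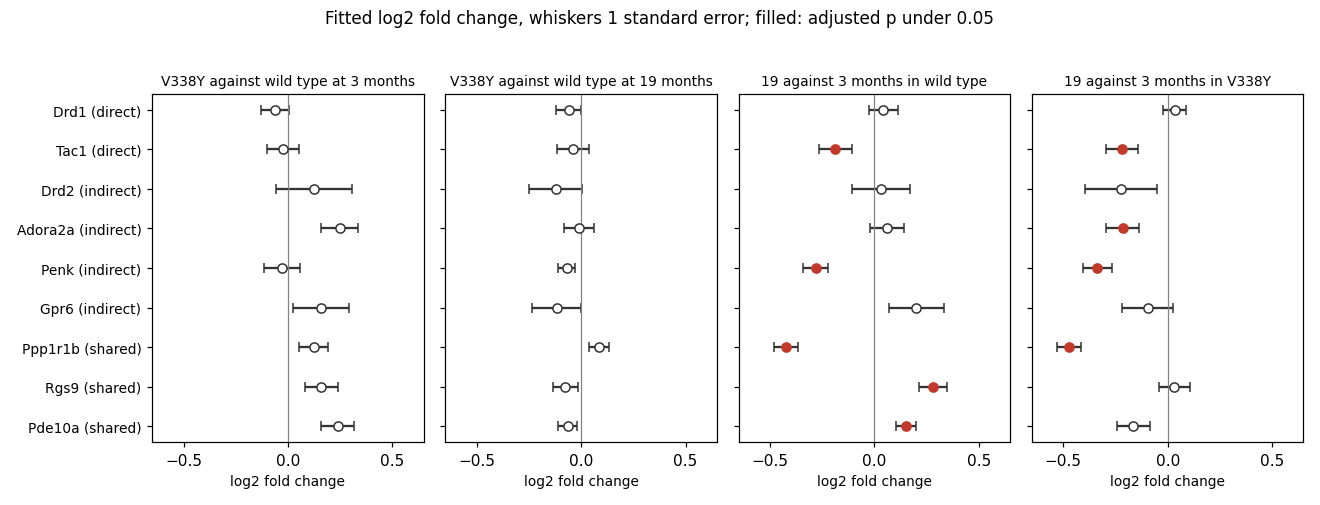
Fitted log2 fold change of each gene (horizontal axis) in the genotype comparisons at 3 and 19 months and the age comparisons in each genotype, with whiskers of 1 SE and filled points for an adjusted p under 0.05. No point is filled for genotype, Ppp1r1b and Penk lie to the left in both age comparisons, and Rgs9 and Pde10a are filled to the right with age in wild type.

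Whether age acted differently in the mutants was tested with an interaction term over the 16 mice. None of the 9 genes passed, against 0.0535% of 16831 genes. At an unadjusted p under 0.05 there were 3, beside 1723 of the 16831 genes tested, and in each of the 3 the change with age was lower in V338Y. Pde10a differed by -0.30 ± 0.0930 (SE; edgeR adjusted p = 0.265), Adora2a by -0.26 ± 0.114 and Rgs9 by -0.23 ± 0.103 (edgeR adjusted p = 0.450 for both). Ppp1r1b (-0.03 ± 0.0879), Penk (-0.04 ± 0.0986), Tac1 (-0.02 ± 0.121) and Drd1 (0.01 ± 0.0932) differed between the genotypes by less than 1 SE. The rise of Rgs9 and Pde10a in wild type is thus not shown to differ from the change in V338Y. In bulk tissue, fewer cells of a type and less RNA per cell cannot be told apart, and this holds for each of the age changes above.

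Direct and indirect pathway genes were set against each other within each mouse, which removes the scaling between libraries. The ratio of Drd1 to Drd2 counts was 5.37, 5.39, 7.0 and 6.26 in wild type and 4.34, 4.39, 5.91 and 7.31 in V338Y at 3 months. At 19 months it was 7.09, 6.22, 4.68 and 5.98 in wild type and 5.92, 6.38, 5.72 and 7.07 in V338Y. All groups overlapped, with means between 5.49 and 6.27. The ratio of Tac1 to Penk counts was 0.233, 0.263, 0.233 and 0.253 in wild type and 0.217, 0.291, 0.225 and 0.257 in V338Y at 3 months. At 19 months it was 0.293, 0.235, 0.240 and 0.285 in wild type and 0.258, 0.249, 0.287 and 0.270 in V338Y. Although Tac1 and Penk both had lower levels with age, their ratio overlapped between all groups.

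The ratio of Drd1 to Adora2a counts was the only one of these 3 that separated any pair of groups compared. It was 1.83, 1.91, 2.05 and 2.03 in wild type and 1.46, 1.57, 1.57 and 1.72 in V338Y at 3 months, so that every V338Y mouse was below every wild-type mouse. At 19 months the ratios were 1.96, 2.04, 1.65 and 2.10 in wild type and 2.0, 1.99, 1.74 and 1.80 in V338Y, and the genotypes overlapped. V338Y mice of 3 months were also below those of 19 months, and the same 4 young mice enter both separations. No test was made on these ratios, whose genes were chosen with results of these data known. Of all genes, 3.4% separated the genotypes at 3 months by their own CPM, and 44.7% separated the ages in V338Y. As a summary, the mean log2 CPM of Drd1 and Tac1 minus that of Drd2, Adora2a, Penk and Gpr6 was 0.95 ± 0.0859 (SD, n = 4) in wild type and 0.79 ± 0.139 in V338Y at 3 months, and 0.88 ± 0.174 and 0.91 ± 0.0502 at 19 months. It overlapped in each of the 4 comparisons, with differences of -0.16, 0.03, -0.07 and 0.12 in the order V338Y at 3 months, V338Y at 19 months, age in wild type and age in V338Y.

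**Figure D3:**
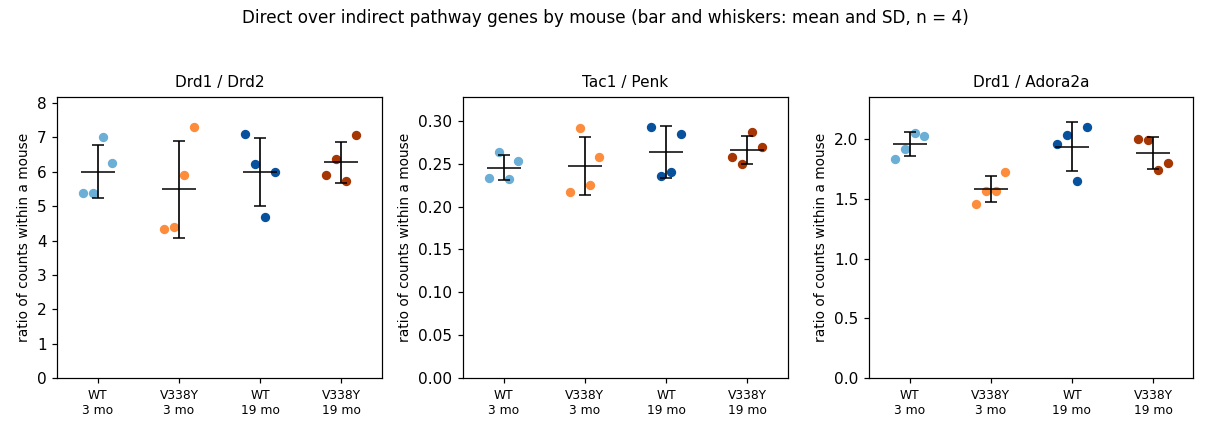
Ratio of counts of a direct to an indirect pathway gene within each mouse (vertical axis, from 0) by group, with bars and whiskers for the mean and SD of 4 mice. Drd1 to Drd2 and Tac1 to Penk overlap in all groups, and Drd1 to Adora2a lies between 1.46 and 1.72 in V338Y at 3 months and between 1.83 and 2.05 in wild type of that age.

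A wider list of 26 striatal genes, of which 25 were found and tested, moved in both directions with age. In wild type, 5 were higher and 7 lower at 19 months with a median of -0.11, and in V338Y 3 were higher and 8 lower with a median of -0.11. Of all genes, 31.4% were higher and 31.5% lower in wild type and 23.1% and 25.7% in V338Y, so the list as a whole did not stand out by these counts. Among the genes called, the largest changes in wild type were those of Six3, a transcription factor of indirect pathway neurons (0.83 ± 0.311, SE; edgeR adjusted p = 0.0209), Eya1 (0.51 ± 0.101, edgeR adjusted p = 6.42e-05) and Foxp1, a transcription factor of medium spiny and cortical neurons (0.49 ± 0.0514, edgeR adjusted p = 1.19e-09). Six3 had few counts, 6 to 21 per wild-type mouse at 3 months and 16 to 20 at 19 months. In V338Y the largest among those called were Rxrg, a retinoid receptor (-0.59 ± 0.0904, edgeR adjusted p = 0.000177), Eya1 (0.59 ± 0.0995, edgeR adjusted p = 0.000371) and Slc35d3, a direct pathway gene (-0.50 ± 0.164, edgeR adjusted p = 0.0219). Between the genotypes 0 of 25 passed the edgeR test at 3 months, with 4 at an unadjusted p under 0.05. At 19 months 2 passed, Meis2, a homeobox factor of the striatum and other regions (-0.24 ± 0.0498, edgeR adjusted p = 0.00393), and Rasd2, a small G protein enriched in striatum (0.21 ± 0.0512, edgeR adjusted p = 0.0170). Over all genes, 0.0616% passed at 3 months and 3.12% at 19 months, and 815 of 16241 had an unadjusted p under 0.05 at 3 months. The difference of the list from these shares was not tested. Many of these genes are also used in cortex and thalamus, where their share was not separated.

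The machinery that carries the dopamine and cyclic AMP signal inside the cell was taken as a further list. Of 29 genes listed, 27 were tested, and Ppp1ca was at 0 in all mice. These counts do not show whether Ppp1ca was not expressed or its reads were not counted. In wild type 7 were higher and 17 lower with a median of -0.24, and in V338Y 4 were higher and 18 lower with a median of -0.25. Over all genes the shares were 31.4% higher and 31.5% lower in wild type and 23.1% and 25.7% in V338Y, and the difference of the list from them was not tested. The largest changes in wild type were Gnb5, the partner of Rgs9 (-0.75 ± 0.0538, SE; edgeR adjusted p = 2.3e-13), Gng7, a G protein subunit of striatal neurons (0.68 ± 0.0639, edgeR adjusted p = 1.5e-10), and Gnai1, an inhibitory G protein (-0.68 ± 0.0437, edgeR adjusted p = 1.7e-14). Rgs9 thus rose in wild type while its partner Gnb5 fell. In V338Y the largest were Ppp1cc, a catalytic subunit of the phosphatase that Ppp1r1b inhibits (-0.57 ± 0.0663, edgeR adjusted p = 2e-05), Gnb5 (-0.54 ± 0.0697, edgeR adjusted p = 4.7e-05) and Gnai1 (-0.54 ± 0.0544, edgeR adjusted p = 6e-06). The genes are used by neurons of all regions, and 6 of 8 genes of all neurons were lower with age in wild type, 5 of 8 in V338Y. Between the genotypes 0 of 27 passed the edgeR test at 3 months, with 2 at an unadjusted p under 0.05, and 2 passed at 19 months, Gnb5 (0.23 ± 0.0570, edgeR adjusted p = 0.0185) and Rap1gap (0.16 ± 0.0373, edgeR adjusted p = 0.0112), both higher in V338Y. Over all genes, 0.0616% passed at 3 months and 3.12% at 19 months, and 815 of 16241 had an unadjusted p under 0.05 at 3 months. The difference of the list from these shares was not tested either.

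A list of dopamine neuron genes, which also holds Dbh and En1, had medians of -1.42 with age in wild type and -0.86 in V338Y. These medians are therefore not those of neurons that project to the striatum alone. In wild type 5 of 6 tested were lower, and in V338Y 5 were lower and 1 higher, beside 31.5% of all genes lower in wild type and 25.7% lower and 23.1% higher in V338Y. The gene that was not lower was Ddc, with log2 fold changes of 0.07 in wild type, not called, and 0.47 in V338Y, called higher. In V338Y Ddc had 12.2 to 17.5 CPM at 3 months and 19.6 to 22.05 CPM at 19 months. In wild type it had 16.3 to 21.7 CPM and 17.02 to 21.1 CPM. Th, the rate-limiting enzyme of dopamine synthesis, had 17.3 to 20.3 CPM in wild type at 3 months and 5.72 to 7.74 at 19 months, without overlap. Dbh, which marks noradrenergic neurons of the hindbrain, and En1, a factor of the midbrain and hindbrain, were near 0 at 19 months, when the cerebellum markers were also lower. Dbh fell by 3.94 in wild type (SE 0.518, edgeR adjusted p = 9e-08) and by 2.68 in V338Y (SE 0.393, edgeR adjusted p = 0.000130), and En1 fell by 2.4 and 1.81 (edgeR adjusted p = 4.3e-05 and 0.00109). The part of the dissection in the fall of Th was not tested. At 19 months Slc6a3, the dopamine transporter, was higher in V338Y (0.64 ± 0.127, SE; edgeR adjusted p = 0.00224), with 8.56, 11.6, 9.74 and 9.32 CPM against 6.34, 7.28, 4.89 and 6.09 in wild type, while Drd1 and Drd2 did not pass in that comparison. Slc6a3 was the 1 gene called of 4 tested from this list, against 3.12% of all genes, and 3 of the 4 had a positive fold change. Th did not pass there, with means of 6.67 CPM in V338Y and 6.83 CPM in wild type. At 3 months 0 of 6 tested from this list passed between the genotypes, against 0.0616% of all genes. Of these, 5 had a negative fold change (median of the list -0.32) and 2 had an unadjusted p under 0.05. Slc6a3 had 10.87 to 13.62 CPM in V338Y and 11.04 to 18.17 CPM in wild type at 3 months. The direction of the list thus differed between the ages, and the cause was not tested.

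Cholinergic neuron genes, which mark the large interneurons of the striatum but also the basal forebrain, were lower in 3 of 5 in wild type and in 2 of 5 in V338Y with age. Among 5 receptors for the peptides made from Penk and Tac1, 3 were higher and 1 lower with age in wild type and 1 was higher in V338Y. With 62.8% of all genes called in wild type and 48.8% in V338Y, counts of this size in 5 genes are no result about either list. Oprm1, the opioid receptor that enkephalin and morphine bind, rose by 0.62 in wild type (SE 0.127, edgeR adjusted p = 8.6e-05) and by 0.58 in V338Y (SE 0.114, edgeR adjusted p = 0.00115), while Penk, a source of its ligand, fell in both. None of these receptor and cholinergic genes passed the edgeR test between genotypes at either age, against 0.0616% of all genes at 3 months and 3.12% at 19 months. At an unadjusted p under 0.05 there were 0, against 815 of 16241 genes at 3 months and 2660 of 16420 at 19 months.

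**Figure D4:**
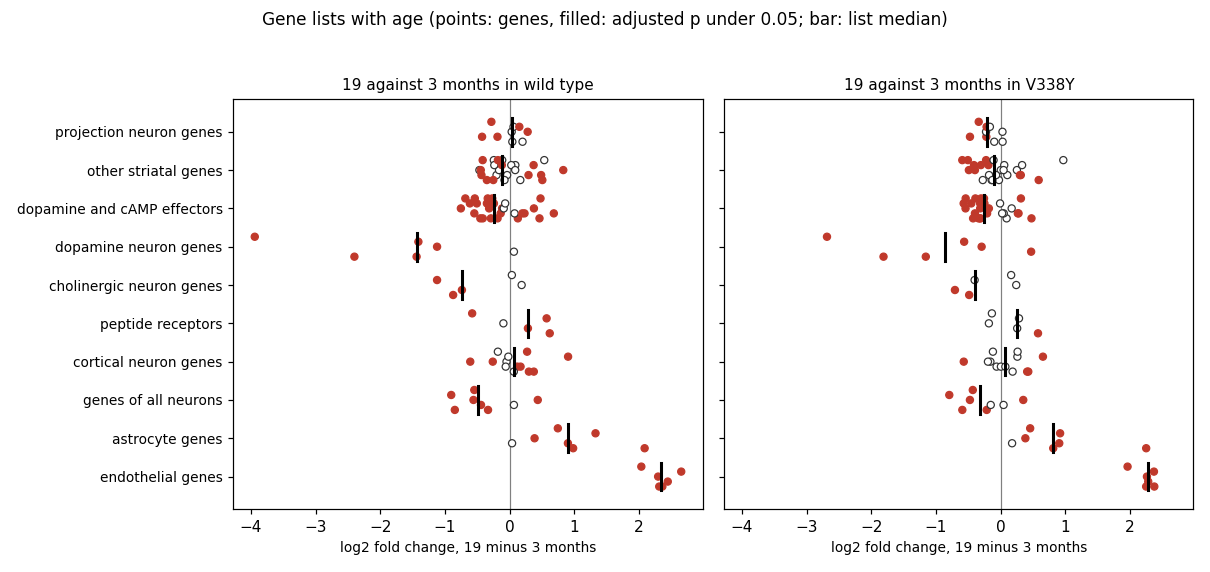
Log2 fold change with age (horizontal axis, 19 minus 3 months) of every tested gene of 10 lists in wild type and in V338Y, with filled points for an adjusted p under 0.05 and a bar at the median of each list. The 9 projection neuron genes have medians of 0.04 and -0.22. The medians of the dopamine neuron list, which also holds Dbh and En1, and of the endothelial list lie much farther out, to the left and to the right.

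In some mice all 9 genes deviated from their group means in the same direction, and other sets of genes were not compared. In wild-type mouse 9 of 3 months and V338Y mouse 19 of 19 months all 9 were above their group mean, and in wild-type mouse 11 and V338Y mouse 16 of 3 months none was. In the other mice 1 to 8 of the 9 were above it. The mean deviation of the 9 genes ran from -0.14 to 0.13 on the log2 scale over the 16 mice. Of 15231 other genes with a mean of at least 1 CPM, the 10 whose deviations from the group means were most like this mean were Efcab2 (Pearson r = 0.861), Snf8, Mgat4b, Mpi, Scn4b (0.831), Kcnj8, Tmem268, Disp3, Pde1b (0.808) and Kcnip2 (0.806), and the median gene had r = 0.00. Scn4b, a sodium channel subunit, Pde1b, a phosphodiesterase, and Kcnip2, a potassium channel partner, stood in the striatal and signalling lists. These r values describe 16 mice that share library and depth, were chosen as the highest of many, and carry no test.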

How the data were processed

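Expected counts per gene of 16 mouse brain libraries were used as the authors deposited them, without normalization. The study's methods name RSEM for the counting and GRCm37 with Ensembl 75, and the submitters' processing notes name bcl2fastq 1.8.4, STAR 2.4.2a, featureCounts and GRCm38. The values were whole numbers of at most 4 significant digits, with all 1495 values of 5 or more digits ending in 0. Symbols and positions came from GENCODE M21 on GRCm38 by Ensembl identifier, for 37607 of 39179 identifiers. Sequences came from RefSeq.

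A gene entered a comparison with 10 or more counts in 2 or more mice of either group, as all 9 genes did every time. Counts were scaled with TMM (factors 0.957 to 1.03) and tested with the robust quasi-likelihood test of edgeR 4.0.16 in R 4.3.3, adjusted after Benjamini and Hochberg over every gene entered, at a threshold of 0.05. Standard errors were computed from the fold change and its F statistic, and 95% intervals from the normal quantile. CPM values were TMM-scaled over the 16 libraries, and 2 was the prior count for log2 CPM. The fits were tested on simulated data. Alternatives used DESeq2 1.42.0, other scalings, other filters, one fit of 16 mice and fits without each mouse.

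The 9 genes and all lists were chosen with earlier results of these data known. Named genes of the other lists are those called, at most 3 per list and comparison by size of change, and 10 genes by likeness. Mrps5, the 4 Y-linked genes and Ppp1ca were named after their values were seen. Labels give separate mice, and replicate pairs differed by more than sampling noise (chi-square per degree of freedom 1.81 to 25.0), so none was counted once. Precision from counting follows from 44 to 5125 counts per value.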

Additional observations from a re-analysis of the deposited data

Results flagged for a closer look

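One of 52 sets of 4 values that were checked for a lone extreme mouse stood out, where chance gives about 1 in 20. Gpr6 in V338Y at 19 months had 8.95 CPM in mouse 19 and 7.07, 6.74 and 6.96 CPM in the others, a gap larger than Dixon's critical value for 4 values. All 9 genes were above their group mean in this mouse, and no test was made of that.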

How the results depend on the processing

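No member was called between genotypes or for the interaction under any alternative run. Genes called between genotypes at 3 months (10) were 26 with DESeq2, 20 with no filter and 23 in one fit of 16 mice, and 6 to 13 without each mouse. At 19 months (512) they were 791 with no filter, 120 in one fit and 287 to 611 without each mouse; library size alone gave 357 higher and 263 lower in place of 196 and 316. With age in wild type it gave 4175 higher and 6321 lower in place of 5050 and 5065. Members called with age in wild type (5) were 3 in one fit, 4 to 5 without each mouse, and 1 with the cerebellum marker covariate, where 112 genes were called and Rgs9 (-0.25) and Pde10a (-0.027) turned lower. In V338Y (4) they were 2 with DESeq2, 2 to 4 without each mouse, 2 with the covariate (4806 genes) and 2 without both mice of the highest choroid plexus markers (5389 genes). Genes called for the interaction (9) ranged from 1 to 57 without each mouse. The covariate and the choice of mice were made after seeing the data, and the cause of these changes was not tested. Ppp1r1b was lower under every alternative, losing its call with the covariate in wild type alone. No paired analysis was possible because the groups compared share fewer than 2 mouse numbers and hold different animals. Drd2 and Gpr6 have the fewest counts and the widest intervals.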
